A study of Drosophila melanogaster with 2 samples.

Results

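The 8 genes VAChT, ChAT, VGlut, VGAT, Gad1, ple, Ddc and Vmat make or load the classical small-molecule neurotransmitters of Drosophila melanogaster. They were chosen by symbol, and VAChT and ChAT, which share a start site, were counted as 1 locus, which gave 7 loci among 13945 protein-coding genes. The question asked of each was where, and how strongly, the protein encoded by CG15812 was found on it. Chromatin immunoprecipitation followed by sequencing (ChIP-seq) had been done on whole embryos of mixed sex, aged 0 to 24 h, from 1 transgenic line that stably makes CG15812 protein with GFP at its C-terminus. The 2 samples, biological replicates 1 and 2, came from that same line and form 1 group, so no untagged line, mutant or second stage was compared. Chromatin was sheared by sonication to fragments of 200 to 800 bp. The labels name the immunoprecipitated factor pfk, a symbol that the annotation gives to another gene, and their description field speaks of an input control although the assay title and antibody entry are those of an immunoprecipitated sample. The samples are treated here as immunoprecipitated.

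The data are 4 lists of regions on build dm6, each region with a summit (its position of highest signal) and a signal in the authors' units. Relaxed lists of 30000 regions each were deposited for replicate 1, for replicate 2 and for the pooled replicates. A stricter list holds 2886 peaks from an irreproducible discovery rate (IDR) filter, a method built on how alike replicates rank peaks. These were the 2886 pooled regions of highest signal. Being on the list therefore does not by itself show that the replicates ranked a given peak alike. Relaxed lists include background by design, so presence in one was not read as binding. The IDR list, whose signals are those of the pooled list, reached down to 127.8. The median signal was 42.8 in the pooled list, 25.2 in replicate 1 and 23.8 in replicate 2. The normalization of the signals is not stated, so replicates were set side by side by rank and by the log2 difference at matched summits. Where a reference is given, it is that difference over all IDR peaks or over pooled summits outside the IDR list. The lists carry no read counts, so depth is unknown and no interval or detection floor could be computed. In whole embryos, strong occupancy in few cells and weak occupancy in many cannot be told apart, and no RNA was measured that could show which of these genes were active.

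Nerve cells are classed by the transmitter they release, and each class needs an enzyme that makes the transmitter and a vesicular transporter that loads it into synaptic vesicles. ChAT (choline acetyltransferase) makes acetylcholine and VAChT loads it, and in Drosophila as in other animals VAChT lies inside an intron of ChAT, so that both are transcribed from a common promoter. VGlut loads glutamate, the transmitter of fly motor neurons, Gad1 (glutamate decarboxylase) makes GABA, and VGAT loads it. The product of ple, tyrosine hydroxylase, makes DOPA, dopa decarboxylase (Ddc) makes dopamine and serotonin from their precursors, and Vmat loads monoamines. The enzymes ple and Ddc also serve the cuticle, since the epidermis uses dopamine to harden and colour it.

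The windows below carry the findings and are printed 5′ to 3′ on the strand of the gene, from dm6, with 50 bp to each side of a summit in the pooled list unless stated. Capitals mark the 6 bp sequence GGAACG or, where it lies on the other strand, its complement CGTTCC, which an earlier look at these same peaks had found to be frequent near summits. The first window is the strongest summit at any of the 8 genes, in the intron that follows the exon shared by VAChT and ChAT (chr3R:18706439-18706539, plus strand), and the second is the weaker IDR summit before their start site (chr3R:18705304-18705404, plus strand). The third lies deep in the ChAT intron at the summit just short of the IDR limit (chr3R:18719870-18719970, plus strand). The fourth is the 100 bp before the start site of Ddc, beside the strongest summit of the other loci (chr2L:19120307-19120406, minus strand), and the fifth is the window at ple, clipped to 98 bp where the transcript begins (chr3L:6719526-6719623, minus strand). The last is a weak intronic summit of Gad1, the sole other pooled summit of the 8 genes with the 6 bp sequence beside it (chr3L:4076195-4076295, minus strand).
VAChT/ChAT first intron: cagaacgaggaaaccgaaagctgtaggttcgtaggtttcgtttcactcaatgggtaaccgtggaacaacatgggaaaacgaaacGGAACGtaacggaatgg
VAChT/ChAT upstream: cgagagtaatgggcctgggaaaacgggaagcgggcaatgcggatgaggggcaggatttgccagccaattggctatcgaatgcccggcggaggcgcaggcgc
ChAT deep intron: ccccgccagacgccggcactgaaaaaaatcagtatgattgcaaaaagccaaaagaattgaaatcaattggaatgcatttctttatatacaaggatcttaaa
Ddc upstream: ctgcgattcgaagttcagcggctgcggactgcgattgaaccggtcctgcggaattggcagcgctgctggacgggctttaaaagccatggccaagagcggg
ple upstream: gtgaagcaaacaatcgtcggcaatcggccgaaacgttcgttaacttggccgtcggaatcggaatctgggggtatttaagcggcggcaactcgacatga
Gad1 intron: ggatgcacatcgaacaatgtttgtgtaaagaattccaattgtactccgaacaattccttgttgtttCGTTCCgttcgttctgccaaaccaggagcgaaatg
The GC content was 47.5% in the first of these windows, 63.4% in the second and 36.6% in the third. The first and last windows hold a single marked copy each, and in both it reads CGGAACG on one strand. The other 4 hold none.

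The cholinergic locus was the single one of the 7 with an IDR peak. Its 2 IDR summits both lay within 1 kb of the shared start site, so 2 of the 8 genes, VAChT and ChAT, had a promoter-proximal IDR summit. Among all protein-coding genes, 2225 of 13945 (16.0%) had an IDR summit within 1 kb of a start site, and 2490 (17.9%) had one there or in the gene body. With 7 loci, 1 called locus is close to that background. The other 6 loci, which hold the vesicular transporters for glutamate, GABA and monoamines and the enzymes Gad1, ple and Ddc, had no IDR summit within 1 kb of a start site or in the gene body.

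In the relaxed lists, 6 of 7 loci (7 of 8 genes) had at least 1 pooled summit by the same rule, where 9211 protein-coding genes (66.1%) did. The count was also 6 loci in replicate 1 (67.1% of all genes) and 6 loci in replicate 2 (65.2% of all genes), and VGAT was the locus without a summit in all 3 lists. The members held 25 summits in the pooled list, 26 in replicate 1 and 25 in replicate 2. Of the 25 pooled summits, 16 belonged to VAChT/ChAT and 9 to the other loci together. These shares lay above the background, but with 7 loci they were not read as a result about the genes. The windows searched were also long, 3772 bp (VGAT) to 27844 bp (VAChT/ChAT), against a median of 3167 bp over all protein-coding genes. The part of length in these counts was not tested. The loci also differed in the height of the signal.

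**Figure D1:**
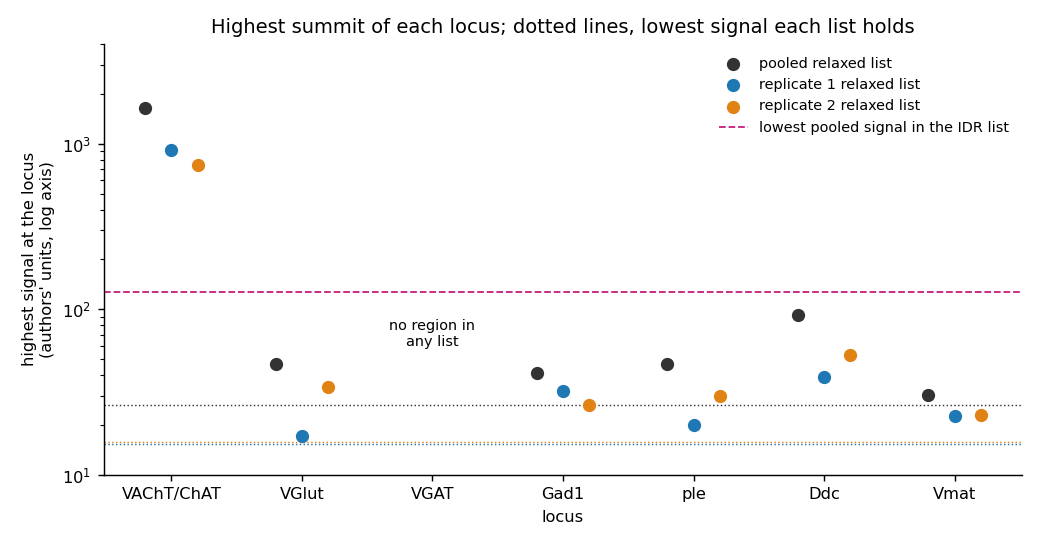
Highest signal at each of the 7 loci in the pooled list and in replicates 1 and 2, in the authors' units on a log axis, with the lowest signal of the IDR list as a dashed line and that of each relaxed list as a dotted line in its colour. VAChT/ChAT reached 1641 in the pooled list, Ddc came next at 92.7, and VGAT has no point because no list placed a summit there.

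By highest pooled signal, VAChT and ChAT ranked 197 of 13945 genes, above 98.6% of them. Of these genes, 9211 had a pooled summit, and those without one ranked below them. The highest signal was taken over the whole window of each gene, 27844 bp at the VAChT/ChAT locus against a median of 3167 bp. The part of length in these ranks was not tested. Ddc came next of the members at rank 3782, above 72.9% of genes. VGlut ranked 6789 and ple 6805, with nearly the same pooled signals of 47.0 and 46.8, and the replicates at ple alone differed by more than that (19.9 in replicate 1 and 29.9 in replicate 2). Gad1 ranked 7324 with 41.2, and Vmat ranked 8653 with 30.2. The median over all genes with a pooled summit was 75.9, so VAChT/ChAT and Ddc stood above it and the other 4 loci with a summit stood below it.

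VAChT and ChAT begin at the same base (chr3R:18705501-18718916 for VAChT, FBgn0270928, and chr3R:18705501-18732344 for ChAT, FBgn0000303, plus strand) and share an untranslated first exon that ends at position 18706106. The first intron of ChAT runs from 18706107 to 18723987, 17881 bp, and the whole VAChT coding sequence (18712810 to 18714543) lies inside it. The main IDR summit, at position 18706489, was 988 bp downstream of the start site and 383 bp past the end of the shared exon, in the first intron of both transcripts. Its signal was 1641 in the pooled list (rank 201), 921 in replicate 1 (rank 184) and 745 in replicate 2 (rank 228). The replicate summits lay 9 bp from the pooled position in replicate 1 and 0 bp from it in replicate 2. Ranks and positions of the replicates therefore nearly coincided at this peak.

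The lesser IDR summit, at position 18705354, was 147 bp upstream of the start site, in a region of 149 bp, where the main peak's region was 501 bp wide. It had a signal of 215.7 in the pooled list (rank 1325), 127.9 in replicate 1 (rank 1220) and 89.7 in replicate 2 (rank 1659). A weaker summit that did not enter the IDR list stood 52 bp downstream of the start site, in the 5′ UTR, with 63.5 in the pooled list, 30.0 in replicate 1 and 58.1 in replicate 2. The log2 difference of replicate 1 minus replicate 2 was 0.31 at the main summit, 0.51 at the upstream one and -0.96 at the one in the 5′ UTR. Over all 2860 IDR peaks with a summit of both replicates within 200 bp, the median was 0.21 with an SD of 0.54. Both IDR summits at the locus were therefore within 1 SD of that median. The summit in the 5′ UTR is outside the IDR list. Over the 12325 pooled summits outside that list with both replicates matched, the median was 0.09 with an SD of 0.67. The 5′ UTR summit lay more than 1 SD below that median.

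The main summit sat far from its start site for an IDR summit counted as promoter-proximal. Of 1922 IDR summits within 1 kb of a protein-coding start site, 38 lay beyond 900 bp and 230 (12.0%) beyond 500 bp, and the median distance was 77 bp. The distance that counts as a promoter thus decides whether this summit is named promoter or intronic, while the upstream summit at 147 bp keeps the locus in the count either way.

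The rest of the ChAT gene held many low summits. Of the 16 pooled summits at the locus, 12 lay in the first intron of ChAT; 2 were at or over the IDR minimum, 6 lay between the pooled list's median and that minimum, and 8 were under the median. The highest of those outside the IDR list, at position 18719920, was 14419 bp downstream of the start site and 297 bp downstream of the start of lncRNA:CR46265, a non-coding RNA gene nested in the intron. Its signal was 124.2 in the pooled list (rank 3020), 68.0 in replicate 1 (rank 3369) and 60.7 in replicate 2 (rank 2961), with a log2 difference of 0.16. The IDR list ended at rank 2886 with 127.8 and the next pooled region had 127.7, so this summit fell just outside. Whether it belongs to ChAT or to the nested gene cannot be told from position alone.

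The next summit in height, 77.7 at 18682 bp downstream, had 34.8 in replicate 1 and 44.1 in replicate 2. Pooled summits were spaced at 5.75 per 10 kb over the locus, against 2.78 per 10 kb over the windows of all protein-coding genes and a median of 4.41 per 10 kb over the genes with a pooled summit. The 3 nested protein-coding genes CG34283, CG7714 and CG7715 had no pooled summit within 1 kb of a start site. Replicate 1 alone had a low summit of 15.4 at 93 bp from the start of CG7714 and one of 18.02 at 795 bp from that of CG34283. Mekk1 and CG14302 lie just past the 3′ end of ChAT.

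**Figure D2:**
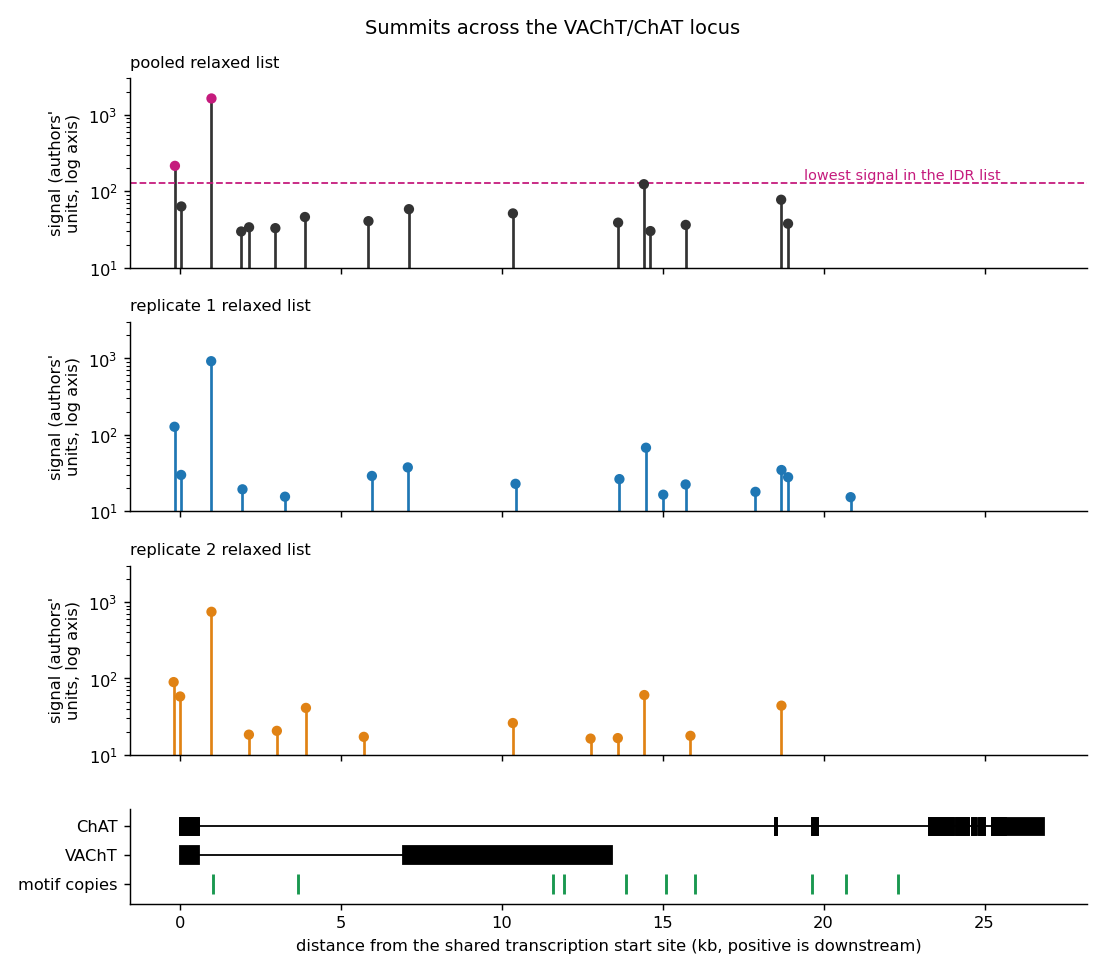
Summits of the pooled, replicate 1 and replicate 2 lists along VAChT/ChAT by distance from the shared start site, with signal in the authors' units on a log axis, IDR summits in magenta, the lowest IDR signal as a dashed line, exons as boxes, and copies of the 6 bp sequence as ticks. The tallest point in every list stands 979 to 988 bp downstream of the start, and the later pooled summits in the ChAT intron stay under 127.8.

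Among IDR summits within 1 kb of a protein-coding start, the genes next above the main VAChT/ChAT summit in pooled signal were Utx (1649), tou (1647) and MFS17 (1647), and those next below were Bug22 with TfIIB (1638), ssp3 (1634) and CG5151 (1625). The replicate 1 signal was 921 at VAChT/ChAT and 751 (Bug22) to 894 (CG5151) at these 6, and the replicate 2 signal was 745 at VAChT/ChAT and 753 (CG5151) to 901 (Bug22) at the 6. VAChT/ChAT was thus above all 6 in replicate 1 and below all 6 in replicate 2. Around the upstream summit the neighbours were RhoGAP18B and Ldsdh1 (both 216.4) and Apoltp (215.9) above, and Pi3K21B (215.4), Dph1 (214.7) and Ran with Lint-1 (214.6) below. The likeness rests on pooled signal over the 2 replicates alone. The 6 bp sequence was within 50 bp of the summit at 4 of the 6 genes around the main summit and at 1 of the 6 around the upstream one.

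**Figure D3:**
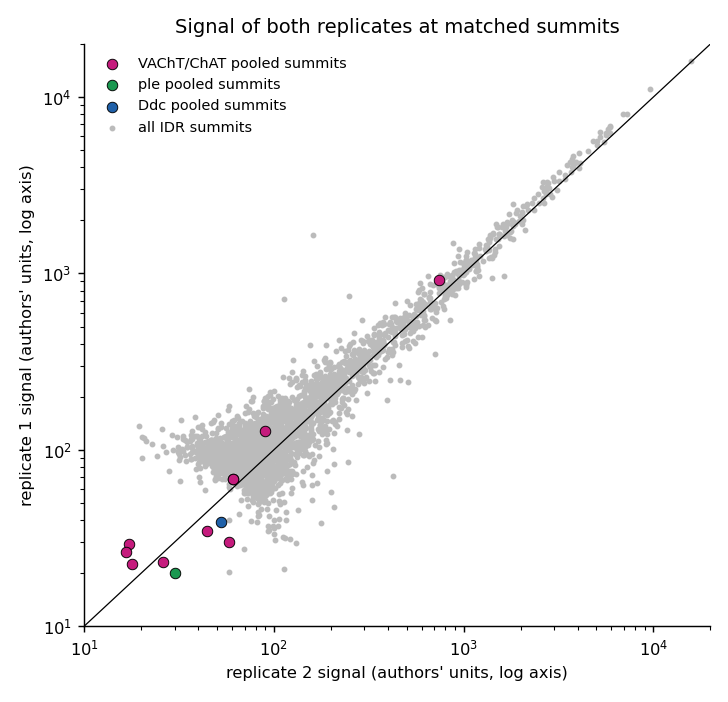
Signal of replicate 1 against replicate 2, in the authors' units on log axes, at summits matched within 200 bp, with pooled summits of the members in colour over all matched IDR peaks in grey and a line of equal signal. The main VAChT/ChAT summit lies at 921 in replicate 1 and 745 in replicate 2, inside the cloud of IDR peaks.

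Among the members, the monoamine enzyme genes ple and Ddc had their highest pooled summit within 100 bp of the start site. Ddc (FBgn0000422, chr2L:19116483-19120306, minus strand) had its main pooled summit 13 bp downstream of the start, in the 5′ UTR, with a signal of 92.7 (rank 4797). Replicate 1 had 38.9 there (rank 8001, 67 bp downstream) and replicate 2 had 52.8 (rank 3812, 20 bp upstream), a log2 difference of -0.44. Both replicates thus placed a summit within 100 bp of the Ddc start, and the pooled signal there was under the IDR minimum. A second pooled summit of 31.7 at 565 bp upstream had no replicate summit within 200 bp. Replicate 1 alone had a low summit of 18.4 at 770 bp upstream, and replicate 2 alone one of 15.9 at 1686 bp downstream, in an intron. The nearest IDR summit was 11678 bp from the start, at AsnRS.

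At ple (FBgn0005626, chr3L:6713356-6719525, minus strand), which encodes the first enzyme of the dopamine pathway, the single pooled summit was 48 bp upstream of the start with a signal of 46.8 (rank 13095). Replicate 1 had 19.9 at 46 bp upstream (rank 20907) and replicate 2 had 29.9 at 151 bp upstream (rank 10080), a log2 difference of -0.59. The replicate 1 signal was below the median of its list and the replicate 2 signal above that of its own. The nearest IDR summit was 10348 bp away.

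Gad1 (FBgn0004516, chr3L:4074077-4088744, minus strand, 3 start sites), the GABA-making enzyme, had 3 pooled summits and none that both replicates shared within 200 bp. One of 39.0, 101 bp downstream of the first start and in the 5′ UTR, was matched in replicate 2 alone (26.5). It also lies inside CG14989, which overlaps Gad1 on the opposite strand, and 488 bp upstream of the nearest start site of that gene. The intronic summits of 41.2 (rank 15802) and 29.2 (rank 26204) were matched in replicate 1 alone, at 32.3 and 27.2. Presence at Gad1 therefore differed between the replicates at every pooled summit. The nearest IDR summit was 14801 bp from a start, at Fit1.

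The transporters other than VAChT, like Gad1, had no pooled summit that both replicates matched within 200 bp. VGlut (FBgn0031424, chr2L:2400295-2410662, plus strand, 2 start sites) had 1 pooled summit of 47.0 (rank 13019), 1638 bp downstream in an intron, which replicate 2 matched (34.01, rank 8071) and replicate 1 did not. Replicate 1 instead had 17.1 at 297 bp upstream of a start (rank 25967). The replicates thus shared no summit at VGlut, and the nearest IDR summit was 24474 bp away, at Atxn7. The 3′ end of VGlut overlaps that of CG18641, and the 3′ end of Ddc that of CG10561, and neither neighbour had a start within 1 kb of these summits.

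Vmat (FBgn0260964, chr2R:13513132-13534251, minus strand, 3 start sites), the monoamine loader, had pooled summits of 30.2 (rank 24817) 997 bp downstream of a start and 29.3 (rank 26138) 4253 bp downstream, both in introns. Replicate 1 matched the first alone (20.3) and replicate 2 the other alone (22.9). The second lies 245 bp downstream of the start of CG13332, a gene on the opposite strand inside Vmat. Replicate 1 had 3 summits in all, of at most 22.5, and replicate 2 had 5, of at most 22.9. A replicate 2 summit of 17.4 lay 925 bp from the start of CG13330, the second of the genes nested in Vmat, and the start of the other, CG13331, had no summit within 1 kb in these windows. The nearest IDR summit was 5545 bp away, at Nadk1a.

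VGAT (FBgn0033911, chr2R:14198478-14201249, minus strand), the loader of GABA and the shortest of the 8 genes, had no summit in any list within 1 kb of its start or in its body. The nearest pooled summit was 3423 bp from its start, with a signal of 39.5, the nearest in replicate 1 was 3468 bp away and in replicate 2 5167 bp away. The nearest IDR summit, of 145.2, was 11502 bp away, 338 bp from the start of the neighbouring gene Sox15. The window searched at VGAT was 3772 bp, against 27844 bp at VAChT/ChAT, and absence from these lists does not show that the protein is absent.

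**Figure D4:**
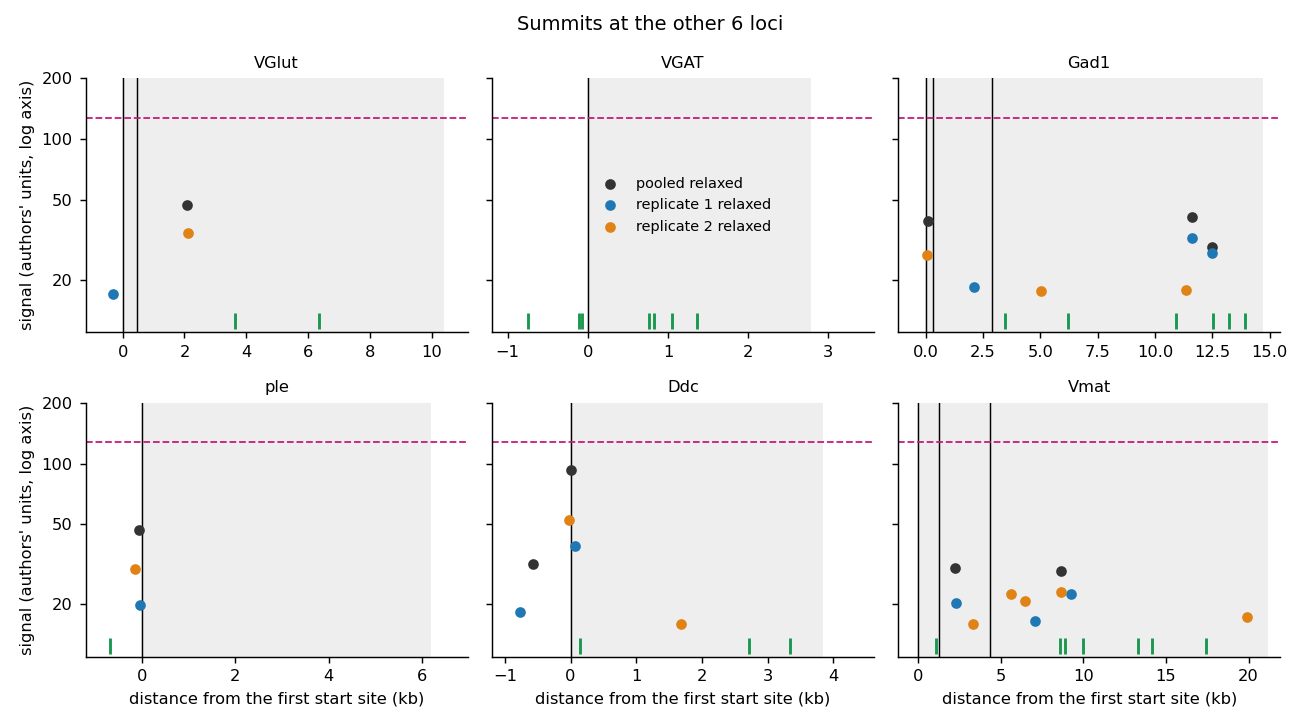
Summits at VGlut, VGAT, Gad1, ple, Ddc and Vmat by distance from the first start site, with signal in the authors' units on a log axis, the gene body in grey, start sites as vertical lines, the lowest signal of the IDR list as a dashed line and copies of the 6 bp sequence as green ticks. All points lie under the dashed line, which is a pooled signal and so a limit for the pooled points alone. The VGAT panel has no points.

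The 9 pooled summits of these 6 loci had signals of 29.2 to 92.7 with a median of 39.0. Of them, 3 were over the pooled list's median and 5 lay within 1 kb of a start. Over all 25 pooled member summits, 12 had a summit of both replicates within 200 bp, 10 of these at VAChT/ChAT, 1 at ple and 1 at Ddc. The 12 rest on 11 distinct pairs of replicate summits, because 2 neighbouring ChAT summits share a pair. Outside the IDR list the count was 10 of 23, or 43.5%, against 45.5% of the 27111 pooled regions outside the IDR list. The median log2 difference of replicate 1 minus replicate 2 over the 12 was 0.16 with an SD of 0.53.

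The 6 bp sequence GGAACG, read on either strand, was compared between the member summits and all summits as a description, since it had been found in these peaks. It lay within 50 bp of 1 of the 2 member IDR summits, where 424 of 2886 IDR summits (14.7%) had it, and within 50 bp of 2 of the 25 pooled member summits, where 1297 of 29997 (4.32%) did. Of 13685 start sites of protein-coding genes, 425 (3.11%) had it within 50 bp. At VAChT/ChAT the copy ran from position 18706523 to 18706528, centred 36.5 bp from the main summit. At Gad1 it was centred 18.5 bp from the weak intronic summit that replicate 1 alone matched.

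Most copies at these genes had no summit beside them. The 7 loci held 36 copies, of which 1 (2.78%) was within 50 bp of an IDR summit, against 567 of 34711 copies (1.63%) on the 6 chromosome arms analysed. VAChT/ChAT held 10 copies, and the other 6 loci held 26 together, between 1 at ple and 7 each at VGAT and Vmat. At VGAT, 3 of its 7 copies lay before the start, at -70, -106 and -744 bp, and 4 in its coding exons, with no summit in any list. The overlapping sequence CGGAAC, which overlaps GGAACG wherever CGGAACG occurs, was beside 1 of the 2 IDR and 3 of the 25 pooled member summits, against 11.2% of IDR summits, 3.90% of pooled ones and 3.82% of starts. The sequences GGTCACAC, TATCGATA and GAGAGA were beside none of the 25, against 1.12%, 1.25% and 5.89% of all pooled summits in that order, so these counts are near the background.

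The rest of the transmission machinery was described from 6 lists of 90 genes in all, 89 matched by symbol and 1 by alias. An IDR summit lay within 1 kb of a start at 12 of the 90 (13.3%), against 16.0% of all protein-coding genes, and a pooled summit lay at a start or in the body of 74 (82.2%), against 66.1% of all protein-coding genes. The listed genes were longer, with a median length of 10944 bp against 2166 bp over all protein-coding genes, and the part of length in this count was not tested. In the cholinergic list, 1 of 15 genes was called, the nicotinic receptor subunit gene nAChRalpha4, with 244 in the pooled list, 125 in replicate 1 and 130 in replicate 2. In the GABAergic list 1 of 8 was called, Gabat, which encodes the transaminase that breaks GABA down. Its signal was 3357 in the pooled list, 1691 in replicate 1 and 1703 in replicate 2. That summit was 355 bp upstream of Gabat but 47 bp from the start of Tom20, so it cannot be assigned to one of them.

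In the glutamatergic list 3 of 16 were called, the receptor gene mGluR (212 in the pooled list), the glutamine synthetase gene Gs1 (139) and the glutamate dehydrogenase gene Gdh (173 at its start, and 409 at a further IDR summit in its body). Nmdar2, a glutamate receptor subunit gene, had no IDR summit at its start and 2 in its body, the higher of them, of 506, in the 3′ UTR, 165 bp from the start of inc and 231 bp from that of sta. For monoamine synthesis and transport 1 of 15 was called, the dopamine transporter gene DAT, with 184.7 in the pooled list, 86.9 in replicate 1 and 93.3 in replicate 2, at 287 bp upstream and 498 bp from CG4945. Among monoamine receptors 2 of 19 were called, Oamb and TyrR. Oamb, an octopamine receptor gene, had 2562 in the pooled list, 1393 in replicate 1 and 1200 in replicate 2. Its summit lay 37 bp upstream of its start and had 2 copies of GGAACG within 50 bp. Of the other called genes in the 6 lists, nAChRalpha4 and DAT had 1 copy each beside the summit near the start. The rest of the called genes had none there, and 14.7% of all IDR summits had a copy within 50 bp. The tyramine receptor gene TyrR had 242.7 in the pooled list.

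In the vesicle release list 4 of 17 were called (4 of 16 without Syp, which in Drosophila names Syncrip, an RNA-binding protein, and was listed in error), cpx (complexin, 164.8), unc-13 (a vesicle priming factor, 345), Csp (a synaptic vesicle chaperone, 143) and shi (dynamin, 285). These summits lay 38 to 53 bp from a start. Of the 77 genes with no IDR summit at a start or in the body, 61 had a pooled summit, of 27.1 to 126.1. Of the 12 called genes, DAT, Gs1, Gdh, cpx and Csp were not called when the stronger part of the IDR list alone was used, and Gs1 was not among the regions of highest signal in replicate 1. Each list had 1 to 4 called genes, and none was tested against the others.

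**Figure D5:**
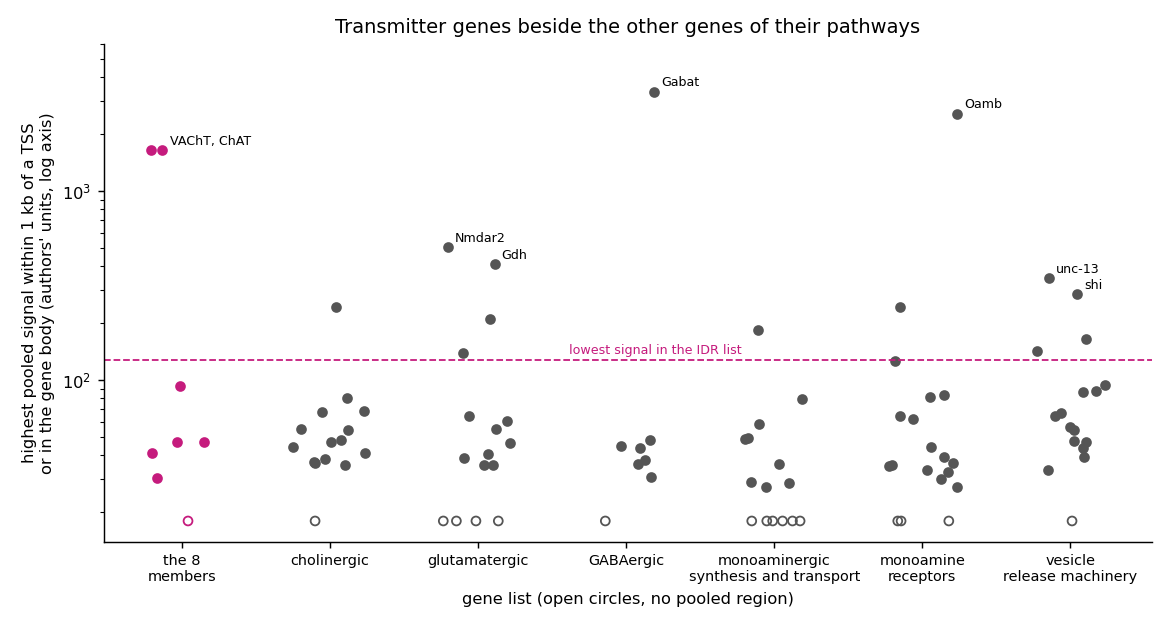
Highest pooled signal of each gene in the members and the 6 pathway lists, in the authors' units on a log axis, with the lowest signal of the IDR list as a dashed line and genes without a pooled summit as open circles. VAChT/ChAT at 1641, Gabat at 3357 and Oamb at 2562 stand above the other genes, most of which lie under the line.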

How the data were processed

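ChIP-seq of GFP-tagged CG15812 was analysed from 4 deposited region lists on dm6, per the labels, covering 2 biological replicates of 1 group. Per the notes deposited with them, the lists were made from each replicate's alignment, or both, and 1 shared control alignment. Which aligner, peak caller and IDR threshold had been used, and in which versions, was not given in the sources used here. For every region the authors deposited a signal, of unstated normalization, together with a −log10 q-value and an offset in bp from the region start to the summit. Signals were used to describe and rank regions inside one list, and as log2 values at matched replicate summits.

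The summit was set against the Ensembl release 115 annotation of BDGP6, which has dm6 coordinates. Only the 6 arms (X, 4 and both arms of the large autosomes) were used, which left out 2 regions of replicate 1, 1 of replicate 2 and 3 pooled. A summit counted for a gene when within 1 kb of any annotated start site or in the gene body. A replicate summit matched a pooled summit within 200 bp, and motifs were searched on both strands in windows of 101 bp. Coordinates are 1-based. Counts, ranks and medians are descriptions, and no test was made, since the 2 samples form 1 group. Named genes are the members, genes starting within 1 kb of a member summit or overlapping a member, and the 3 genes next above and below in signal. Pathway genes with an IDR summit within 1 kb of a start are named too. Other genes were named after their values were seen. These are Nmdar2, the genes Mekk1 and CG14302 just past the 3′ end of ChAT, and Tom20, inc, sta and CG4945, which start near pathway summits. The genes nearest to an IDR summit outside the rule are also among them. The members, gene lists and motifs were chosen with earlier results of these data known. Scripts ran in Python 3.11.15 with numpy 2.4.6, pandas 2.3.3 and matplotlib 3.10.9 and were tested on simulated data. Alternatives changed the start-site distance, peak list, threshold, start sites, match distance and motif window.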

Additional observations from a re-analysis of the deposited data

How the results depend on the processing

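The count of 1 member locus with an IDR summit was 1 under every alternative run (start-site distances of 500 bp and 2 kb, each replicate alone, the stronger part of the IDR list, 1 start per gene, any base of the region). The count of 6 loci with a relaxed summit was 6 in either replicate alone and 4 in the stronger part of the pooled list. Pathway genes called numbered 12, 12 to 13 with 1 replicate left out, 10 to 13 under the other alternatives, and 7 in the stronger part of the IDR list, which holds fewer peaks and lacks DAT, Gs1, Gdh, cpx and Csp. Replicate 1 alone lacked Gs1 and added Nsf2, replicate 2 alone added HisCl1, and leaving out Syp, a choice made after seeing the data, gave 12 of 89. Member IDR summits with GGAACG numbered 1, 0 within 25 bp, since the copy is centred 36.5 bp away, and 2 among pooled summits, which are more. The median log2 difference between replicates was 0.16 over 12 summits, -0.01 over the 8 matched within 100 bp and 0.31 over the 5 within 50 bp. Its sign thus changed with the match distance, and the spread of a median over so few summits was not estimated. No paired analysis was possible because the samples form 1 group. Depth is unknown and limits what absence from a list shows.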
